A study of Sus scrofa with 30 samples.

Results

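The nuclear-encoded genes of the mitochondrial respiratory chain were followed in pig cerebral cortex after cardiac arrest, with and without resuscitation and methylene blue. They were taken as all probe sets (groups of short probes for a single transcript) whose gene symbol starts with NDUF, SDH, UQCR, ATP5 or COX4 to COX8 and which carry that symbol alone. Of 82 such probe sets, 1 was kept per gene, that with the highest mean signal over all arrays, which left 64 genes out of 6765 genes with a symbol on the array. The 64 hold 59 subunits, of which 33 belong to complex I, 4 to complex II, 2 to complex III, 7 to complex IV and 13 to complex V. The other 5 are not subunits by name: the complex I assembly factors NDUFAF1, NDUFAF2 and NDUFAF3, the complex II assembly factor SDHAF2, and ATP5S, a protein linked to ATP synthase. Of 64 genes, 49 had a single probe set, and all 64 passed the filter on low values. UQCRC1, UQCRFS1, COX4I1, COX4I2 and COX5A, which are also well-known subunits, were not analysed here, nor were the subunits encoded by the mitochondrial genome.

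Complex I takes electrons from NADH and complex II takes them from succinate, and both pass them to ubiquinone. Complex III hands them on to cytochrome c and complex IV to oxygen, while protons are pumped across the inner membrane, and complex V (ATP synthase) uses the returning protons to make ATP. Cerebral cortex depends on this chain for nearly all of its ATP, and arrest of the circulation removes the oxygen that complex IV consumes. Methylene blue is a redox dye that can take up electrons and give them up again, and it blocks nitric oxide signalling.

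All animals were farm pigs of a Swedish triple breed, of both sexes, 12 to 14 weeks old and 25.8 ± 1.3 kg in weight, under pentobarbital and ventilated with 30% oxygen. Cardiac arrest was brought on by a current that put the heart into ventricular fibrillation, and potassium chloride was given to every animal before the brain was taken. In CA0, the control, the brain was taken at once (0 min of arrest), and in CA5, CA20 and CA30 after 5, 20 and 30 min of arrest with no resuscitation. The other 6 groups had a 12 min arrest, then mechanical chest compressions for 8 min and a countershock, and their brains were removed at 30, 60 or 180 min of spontaneous circulation. Of these, SAL30, SAL60 and SAL180 received saline at 55 mL/kg/h, and MB30, MB60 and MB180 the same saline with methylene blue at 7.5 mg/kg/h. The infusion ran from 1 min after the start of compressions to 50 min after return of circulation, so that the groups at 60 and 180 min were sampled after its end. Each of the 10 groups had 3 arrays, which the labels call biological replicates. No group had arrest and resuscitation without an infusion.

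Signals were Affymetrix intensities on a linear scale, which the authors had scaled per array, and the median intensity of an array ran from 87.1 to 108.5. The arrays carry no counts. Each group mean rests on 3 arrays, and the standard errors use a spread estimated over all 10 groups together. Defining markers of neurons were high on every array (SNAP25 7120 to 20000, MAP2 6380 to 10800), as were GFAP of astrocytes (5040 to 11500) and MBP of oligodendrocytes (10900 to 25800), while markers of white blood cells were low (PTPRC 6.10 to 52.5). Other markers of the same lists were lower. Among them were GAD2 of neurons (711 to 1910) and ALDH1L1 (74 to 221) and SLC1A3 (143 to 449) of astrocytes. CNP (22.7 to 862) and OLIG2 (128 to 591) of oligodendrocytes were also lower. TTR, a choroid plexus marker, was 12000 on CA20 replicate 2 and at most 193 on the other arrays. The log2 ratio of 3' to 5' signal of control transcripts, a measure of RNA integrity and labelling, was 0.71 to 1.34 on the 9 methylene blue arrays, 0.98 to 2.59 on the 9 saline arrays and 1.06 to 2.70 on the 12 arrays of untreated arrest. It was above 2 on CA20 replicates 2 and 3, SAL60 replicate 2 and SAL180 replicate 3, and SAL30 replicate 1 had the lowest correlation with the other arrays (median 0.933). These are the 5 arrays that stood apart in the fit without them described below. In tissue RNA, fewer cells of a type and less RNA per cell cannot be told apart.

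Respiratory chain transcripts differed in how much they varied from array to array. The median standard deviation between arrays of a group was 0.17 for the 64 genes, on the scale log2(intensity + 16) that is used for all differences here. NDUFB3, an accessory subunit of the membrane arm of complex I, varied least (1659 to 2149 over 30 arrays), and ATP5A1 and ATP5B, the alpha and beta subunits that form the catalytic head of ATP synthase, ran from 4819 to 8770 and from 4055 to 6779. SDHA, the flavoprotein of complex II, ran from 2043 to 3055 and SDHB, its iron-sulphur subunit, from 2728 to 3706. ATP5I, a small membrane subunit of ATP synthase, varied most, with 73.6 on MB60 replicate 1 and 1912 on CA5 replicate 2, a 26.0-fold range with a within-group standard deviation of 1.25. COX8H, a heart-type isoform of a complex IV subunit, ran from 5.44 to 86.5 with a standard deviation of 0.75.

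The subunits moved together from array to array within groups. The mean pairwise correlation of their deviations from the group means over 30 arrays was 0.218 across the 59 subunits, and it was 0.217 within complex I, 0.136 within complex II, 0.159 within complex III, 0.274 within complex IV and 0.293 within complex V, against 0.005 over all probe sets tested. These values share arrays, labelling and scaling, and are given as a description. The median deviation of the 59 subunits from their own means ran from -0.18 on MB180 replicate 1 to 0.13 on CA0 replicate 1. The widest gaps inside a group were in MB30, from -0.16 to 0.05, in MB180, from -0.18 to 0.09, and in MB60, from -0.10 to 0.11. That in SAL60, from -0.12 to 0.08, was nearly as wide as those in MB30 and MB60. The 3 arrays of SAL30 (-0.01 to 0.01) and of SAL180 (0.01 to 0.03) lay closest together.

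**Figure D1:**
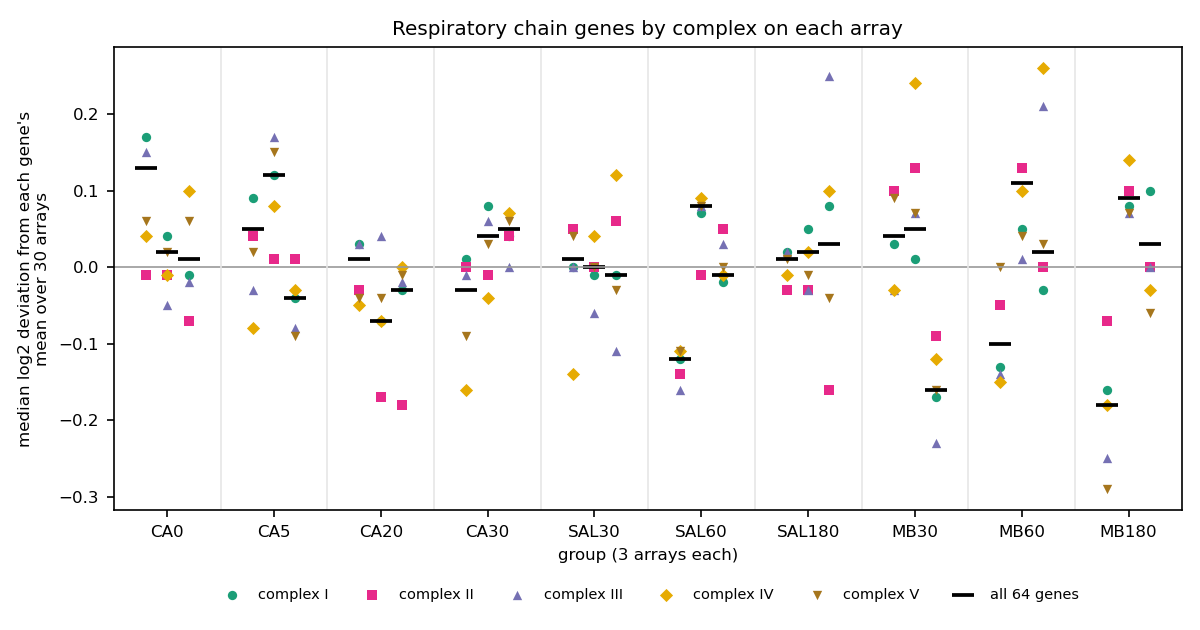
Median log2 deviation from each gene's mean over 30 arrays, for the 3 arrays of each of 10 groups. Coloured points are the subunits of each complex. Black bars are the median over all 59 subunits, although the legend in the figure names all 64 genes. The bars run from -0.18 (MB180) to 0.13 (CA0), and the range within a group is widest in MB180 (-0.18 to 0.09) and narrowest in SAL30 and SAL180.

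The opening comparison asked whether untreated arrest alone changed these transcripts. None of the 64 genes passed at 5, 20 or 30 min against CA0 (limma, adjusted p under 0.05), where 0%, 0.0119% and 0.0119% of all probe sets did, and 3, 3 and 5 of the 64 had an unadjusted p under 0.05. The median difference of the 64 genes was -0.01 at 5 min, -0.07 at 20 min and -0.03 at 30 min on the log2 scale, against 0.01, 0.01 and 0.02 over all probe sets. The genes below CA0 numbered 35 of 64 (54.7%), 46 of 64 (71.9%) and 41 of 64 (64.1%), against 48.5%, 48.7% and 46.9% of all probe sets. These counts, and those of the saline groups below, share the CA0 arrays, whose subunit medians were 0.13, 0.02 and 0.01. The subunits moved together from array to array, so the genes of a count are not independent. The standard deviation between arrays of a group was 0.083 for the per-array median of respiratory chain genes. This is the spread of single arrays, not the error of a difference between groups. Each of the median differences was smaller than 0.083, but they moved with the scaling. After quantile normalization they were 0.00, -0.06 and 0.00, and after centring each array on its median -0.03, -0.10 and -0.09, where the median of all probe sets was -0.01, -0.02 and -0.04. By complex at 20 min, the medians were -0.08 for complex I, -0.05 for complex II, -0.01 for complex III, -0.07 for complex IV and -0.10 for complex V. In CA20, replicates 2 and 3 were 2 of the 4 arrays with the high 3'/5' ratios, and their part in these values was not tested.

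NDUFAF1, which helps to assemble complex I, was 59.5, 71.0 and 76.8 in CA0, 91.0, 97.2 and 90.5 in CA5, 99.9, 72.2 and 55.5 in CA20, and 110, 89.5 and 138 in CA30. The CA5 and CA30 arrays all lay above CA0 and the CA20 arrays overlapped it, and no difference passed (0.58 ± 0.21 SE at 30 min, adjusted p = 0.985). NDUFA2, an accessory subunit of the NADH-oxidising module, was 2123, 2146 and 2162 in CA20 against 3314, 2867 and 2402 in CA0. These groups did not overlap, and the difference of -0.40 ± 0.17 did not pass (adjusted p = 0.997). SDHD, a membrane anchor of complex II, was 1502, 1118 and 1321 in CA20 against 1462, 1686 and 1724 in CA0, which overlap, with a difference of -0.31 ± 0.11 (adjusted p = 0.997). NDUFA1, a membrane arm subunit, was 1817, 2255 and 2253 in CA5, all below the 2371 to 2637 of CA0, and the difference of -0.24 ± 0.10 did not pass (limma, adjusted p = 1). ATP5I was 194, 698 and 308 in CA30 against 774, 1630 and 1569 in CA0, and its difference of -1.80 ± 0.91 lay within its wide spread (adjusted p = 0.985).

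The second comparison set reperfusion under saline against CA0. Again none of the 64 genes passed at 30, 60 or 180 min (limma), where 0.196%, 0.315% and 0.875% of all probe sets did, and 3, 4 and 0 of the 64 had an unadjusted p under 0.05. The median differences of the 64 genes were -0.05, -0.08 and -0.02, against 0.02, 0.01 and 0.00 over all probe sets, and 41, 47 and 38 of the 64 were below CA0 (64.1%, 73.4% and 59.4%, against 46.6%, 47.7% and 49.8% of all probe sets). The medians of the 64 genes were -0.05, -0.07 and -0.02 after quantile normalization, and -0.15, -0.15 and -0.04 after median centring, which moved the median of all probe sets to -0.08, -0.07 and -0.02. As reported and after quantile normalization they were smaller than the 0.083 between single arrays of a group, and after median centring those at 30 and 60 min were not. Centring moved all probe sets as well, and 0.083 is not the error of a difference between groups. At 60 min the medians were -0.10 for complex I, with 26 of 33 subunits below CA0, -0.04 each for complexes II, III and IV, and -0.06 for complex V. The median deviation of the 59 subunits was -0.12 on SAL60 replicate 1, and 0.08 and -0.01 on replicates 2 and 3.

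COX7A1, the isoform of a small complex IV subunit that predominates in heart and skeletal muscle, came closest to the threshold. It was 249, 345 and 351 in SAL60 against 910, 510 and 891 in CA0. All SAL60 arrays lay below all CA0 arrays, and the difference was -1.22 ± 0.29 (adjusted p = 0.0721). It passed without CA0 replicate 2, the lowest control array (-1.48, adjusted p = 0.0294), without the 5 arrays that stood apart (-1.29, 0.0486), with array weights (-1.32, 0.0137) and with adjustment over all contrasts together (0.015). It did not pass with any other single array of these groups left out. Nor did it pass with quantile normalization, median centring, the 3'/5' ratio as a covariate or any other setting tried. Summed markers of smooth muscle and pericytes were 4380 to 4750 in SAL60 and 3540 to 5080 in CA0, and their part in the COX7A1 values was not tested. COX7A2, the widely expressed isoform of the same subunit, was 3985, 4978 and 4375 in SAL60 against 4593, 4577 and 4736 in CA0, which overlap. SDHAF2 had a value of -0.37 ± 0.13 in SAL30 (0.605) and SDHD one of -0.23 ± 0.11 in SAL180 (0.582), both without overlap with the CA0 arrays. NDUFAF1 was above all CA0 arrays in SAL30 (104, 94.5 and 86.8) and in SAL60 (102, 91.1 and 137), and neither difference passed (0.39 ± 0.21 and 0.55 ± 0.21, adjusted p = 0.698 and 0.639). COX6A1, a complex IV subunit, differed by 0.10 ± 0.13 in SAL180 (adjusted p = 0.935).

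The third comparison, methylene blue against saline, asked whether the dye altered these transcripts during reperfusion. Averaged over the 3 times, 15 of the 64 genes passed (23.4%), 11 lower and 4 higher with methylene blue, where 25.2% of all probe sets passed (2313 higher and 1918 lower). The share among respiratory chain genes was thus close to that of the array as a whole. The median difference of the 64 genes was 0.00, against 0.02 over all probe sets, with 33 genes above 0 and 31 below. Of the called genes, 9 were among the 33 complex I subunits (7 lower, 2 higher), 3 among the 13 complex V subunits (2 lower, 1 higher) and 3 among the 5 further factors, and none among the 13 subunits of complexes II, III and IV, of which 1 had an unadjusted p under 0.05. The split by direction depended on the scaling: it was 9 lower and 7 higher after quantile normalization, and 16 lower and 2 higher after centring each array on its median. Centring moved the median of all probe sets from 0.02 to -0.07 in this comparison, so the 64-gene median of -0.09 under it was 0.02 below that of the array.

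**Figure D2:**
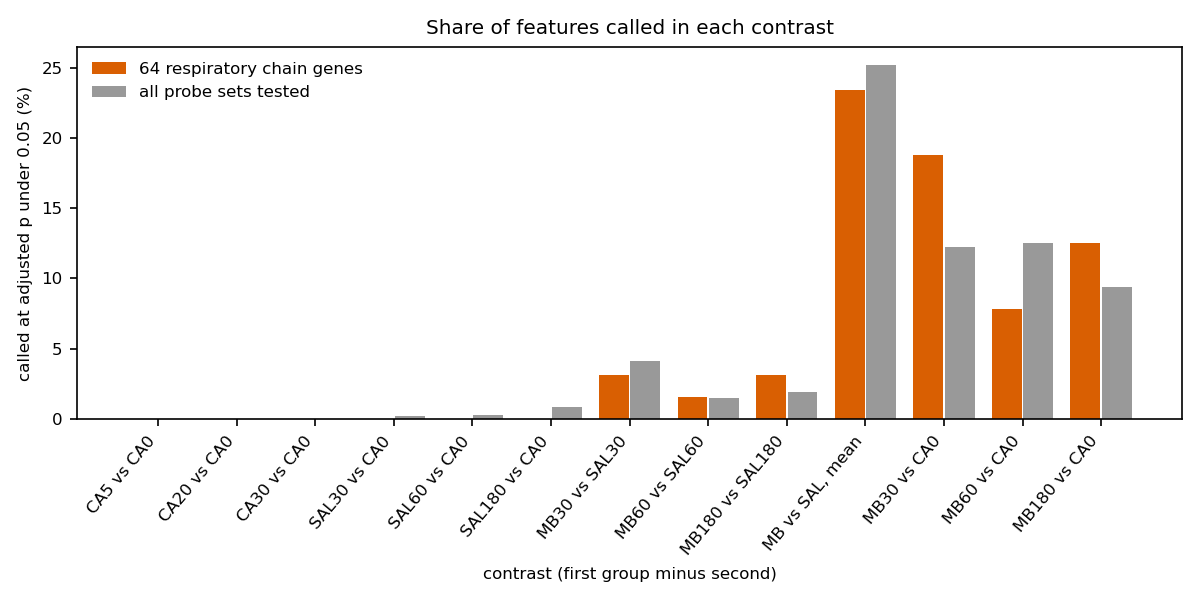
Percentage of the 64 respiratory chain genes (orange) and of all 16799 probe sets tested (grey) called at an adjusted p under 0.05 in each of 13 contrasts. No respiratory chain gene was called in the 6 contrasts of untreated arrest or saline with CA0, and in the mean over times of methylene blue against saline the shares were 23.4% and 25.2%.

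The 3'/5' ratio moved with this comparison, since the median was 0.90 on methylene blue arrays and 1.35 on saline arrays. With that ratio as a covariate 5 of the 15 calls were kept (ATP5J, NDUFA13, NDUFAF3, NDUFB7 and NDUFB9) and no other gene was called, while the share of all probe sets fell from 25.2% to 8.66%. Without the 5 arrays that stood apart, 8 of the 15 calls were kept among 9 made, with 14.8% of all probe sets called. That fit left out SAL30 replicate 1, SAL60 replicate 2 and SAL180 replicate 3 but no methylene blue array, so only the saline arm was smaller. The same 5 genes also kept their calls under every other setting tried and with each of the 18 arrays left out in turn. ATP5E, NDUFA5, NDUFAF1, NDUFB1, NDUFB4 and NDUFV1 also kept theirs with each array left out and lost them with the covariate. NDUFA5, NDUFAF1 and NDUFB1 also lost them without the 5 arrays that stood apart, and NDUFAF1 with adjustment over all contrasts together. NDUFA10, NDUFS7, ATP5G3 and ATP5S lost theirs under all 3 of these settings. Under the covariate the difference of NDUFV1 (-0.31) and NDUFB4 (0.27) was as large as before, with a wider error, while those of ATP5E (-0.20), NDUFB1 (-0.15), NDUFA5 (0.14) and NDUFAF1 (0.13) were smaller. Markers of oligodendrocytes had a median difference of -0.38 (1 of 6 called, OLIG2, lower), with summed levels of 23100 to 32200 on saline and 19300 to 38500 on methylene blue arrays. Markers of microglia had a median of -0.28 (1 of 4 called, TYROBP, -0.52), those of astrocytes -0.06 (2 of 7, GLUL, -0.46, and SLC1A3, 0.43), those of neurons 0.04 (1 of 8, SYT1, 0.31), those of endothelium 0.07 (1 of 7, CDH5, 0.31) and those of meninges 0.21 (1 of 3, DCN, 0.55). None of the 6 smooth muscle and pericyte markers was called (median 0.04). The part of these cell types in the results was not tested.

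**Figure D3:**
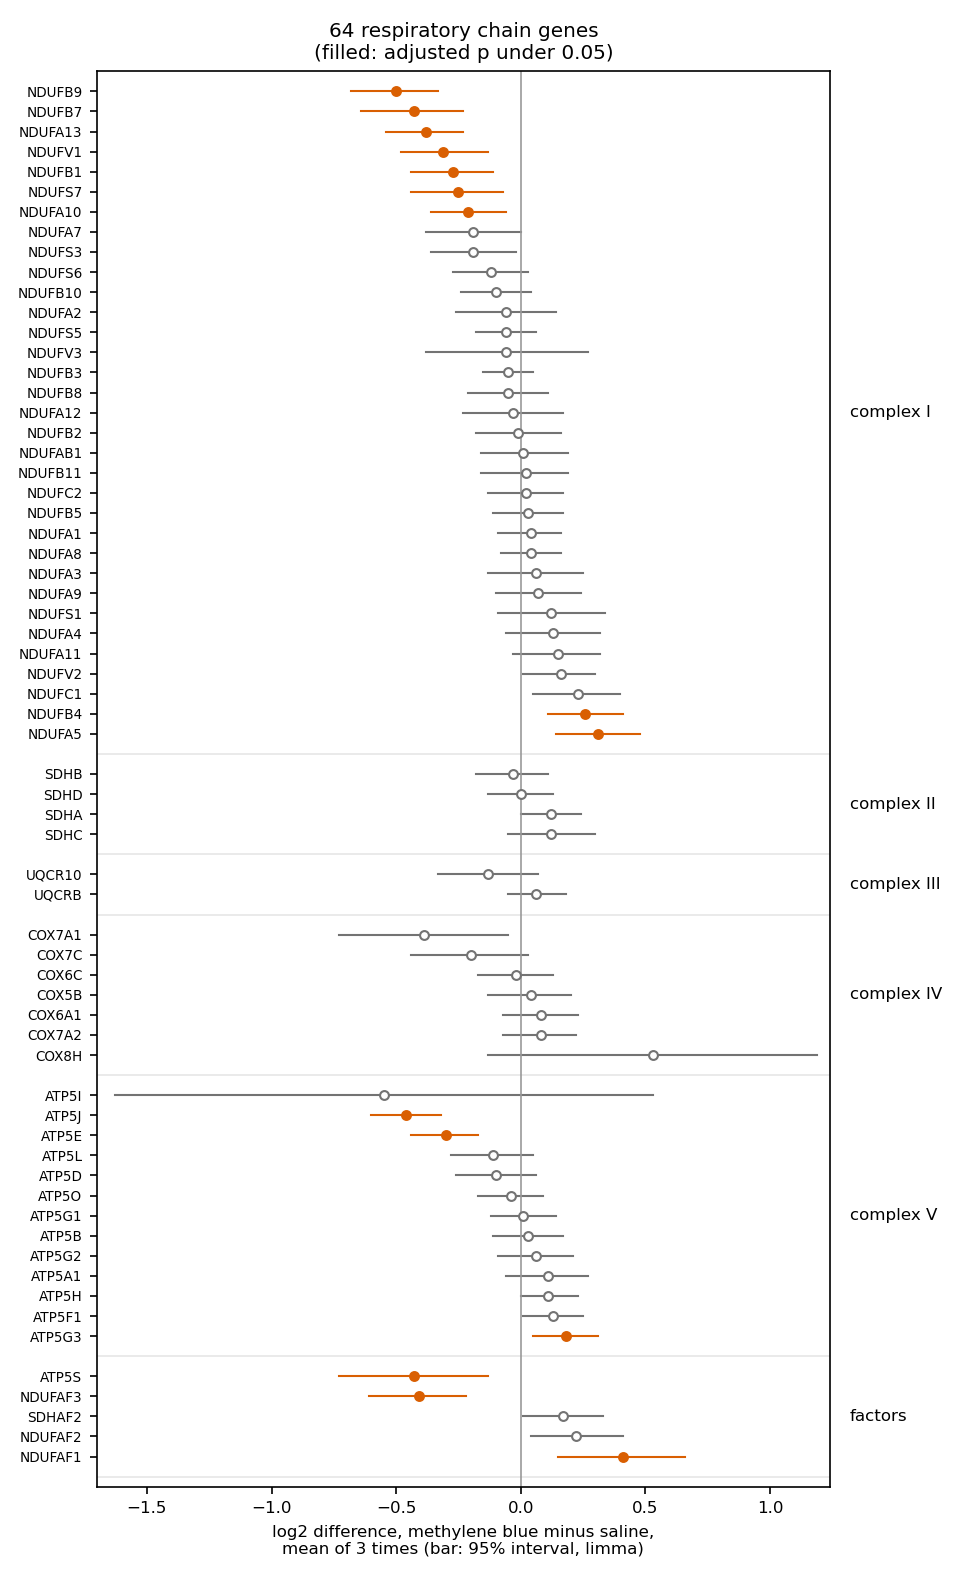
Log2 difference between methylene blue and saline, averaged over 30, 60 and 180 min, with its 95% interval from limma, for all 64 genes by complex. Filled orange points passed at an adjusted p under 0.05: 9 in complex I, 3 in complex V and 3 among the further factors, the lowest called being NDUFB9 (-0.50) and the highest NDUFAF1 (0.41).

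In the membrane arm of complex I, which pumps protons, 5 of 20 subunits fell and 1 rose (30.0%, against 25.2% of all probe sets). NDUFB9 had a lowest, median and highest intensity of 1878, 2142 and 2831 on the 9 methylene blue arrays and 2522, 3119 and 3822 on the 9 saline arrays. The ranges overlapped by MB30 replicate 2 and MB60 replicates 2 and 3, and NDUFB9 fell to 0.707-fold (-0.50 ± 0.09, adjusted p = 0.000226). NDUFA13, also known as GRIM-19, was 2018, 2530 and 2910 with methylene blue and 2685, 3201 and 3941 with saline, with MB60 replicate 2 and MB180 replicate 3 inside the saline range, and fell by 0.38 ± 0.07 on the log2 scale (adjusted p = 0.000755). NDUFB7 was 425, 495 and 746 against 604, 702 and 764. Of its methylene blue arrays 8 of 9 lay below every saline array and the other, MB60 replicate 2, lay near the top of the saline range, and NDUFB7 fell by 0.43 ± 0.10 (adjusted p = 0.00294). NDUFB1, one of the smallest subunits, was 1597, 1795 and 2386 against 1860, 2154 and 2972 and fell by 0.27 ± 0.08 (adjusted p = 0.0126, and -0.15 ± 0.08 with adjusted p = 0.296 under the covariate). NDUFA10 was 438, 577 and 707 against 550, 671 and 733 and fell by 0.21 ± 0.07 (adjusted p = 0.0383, and -0.24 ± 0.09 with adjusted p = 0.101 under the covariate). That call was lost without any of 10 arrays, namely SAL30 replicate 2, SAL60 replicates 1 and 3, SAL180 replicates 2 and 3, MB30 replicate 3, MB60 replicates 1 and 3, and MB180 replicates 2 and 3 (adjusted p from 0.0554 to 0.0934).

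NDUFB4 moved the other way within the same arm. It was 2471, 3097 and 3595 with methylene blue and 2331, 2597 and 2856 with saline, and rose by 0.26 ± 0.07 (adjusted p = 0.0112, and 0.27 ± 0.09 with adjusted p = 0.0588 under the covariate). Its methylene blue arrays were mostly above the saline range, with MB60 replicates 1 and 2 and MB180 replicate 1 inside it. The call was also lost after median centring (adjusted p over all its alternatives from 0.00211 to 0.133). NDUFC1, another membrane arm subunit, stayed short of the threshold, at 0.23 ± 0.09 (adjusted p = 0.0548).

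In the peripheral arm of complex I the NADH-oxidising module had 1 of 7 subunits lower (14.3%) and the quinone-reducing module 1 of 4 lower and 1 higher (50.0%), against 25.2% of all probe sets, and these modules are too small to set apart from that share. NDUFV1, which binds the flavin that accepts electrons from NADH, was 618, 804 and 1095 with methylene blue and 947, 1055 and 1165 with saline, and fell by 0.31 ± 0.09 (adjusted p = 0.0119, and -0.31 ± 0.11 with adjusted p = 0.0708 under the covariate). At 60 min its arrays overlapped and the difference was -0.03 ± 0.15. NDUFS7, an iron-sulphur subunit next to the quinone site, was 671, 976 and 1238 against 931, 1127 and 1221 and fell by 0.25 ± 0.09 (adjusted p = 0.0385, and -0.32 ± 0.11 with adjusted p = 0.0651 under the covariate). Its call was lost without any of 10 arrays, namely SAL30 replicates 1 and 2, SAL60 replicates 2 and 3, SAL180 replicates 1 and 3, MB30 replicate 3, MB60 replicates 1 and 3, and MB180 replicate 3 (adjusted p from 0.0522 to 0.0959). NDUFA5, an accessory subunit of the quinone-reducing module, was 950, 1088 and 1319 against 677, 885 and 1051 and rose by 0.31 ± 0.08 (adjusted p = 0.00823, and 0.14 ± 0.08 with adjusted p = 0.303 under the covariate). NDUFS1, the largest subunit of the NADH-oxidising module, was 900, 1099 and 1292 against 702, 1032 and 1255, with a difference of 0.12 ± 0.10 (adjusted p = 0.41). NDUFA4, counted here with complex I by its symbol although it is now assigned to complex IV, had a difference of 0.13 ± 0.09 (adjusted p = 0.309).

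In complex V the clearest change was in ATP5J, coupling factor F6 of the peripheral stalk, which holds the catalytic head in place. Its intensity was 554, 560 and 598 in MB30, 510, 491 and 565 in MB60 and 522, 549 and 513 in MB180. On the 9 saline arrays it was 673, 725 and 880 at the lowest, the median and the highest, and on the 12 arrays of untreated arrest 654, 753 and 971. All 9 methylene blue arrays lay below all 21 others, and ATP5J fell by 0.46 ± 0.07 against saline (adjusted p = 5.8e-05, and 0.00485 with the covariate, where the difference was -0.31). It was the only one of the 64 genes whose methylene blue and saline arrays did not overlap (1.56%), and 1.95% of all probe sets did not overlap (139 lower and 189 higher). The other 3 peripheral stalk subunits did not pass: ATP5F1 had a difference of 0.13 ± 0.06 (adjusted p = 0.11), ATP5H one of 0.11 ± 0.06 (adjusted p = 0.141) and ATP5O one of -0.04 ± 0.06 (adjusted p = 0.67).

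ATP5E, the small epsilon subunit of the central stalk, was 3798, 4222 and 4566 with methylene blue and 4525, 5226 and 6222 with saline, ranges that overlap only between MB60 replicate 3 and SAL60 replicate 3. It fell by 0.30 ± 0.06 (adjusted p = 0.00138, and -0.20 ± 0.07 with adjusted p = 0.0691 under the covariate). ATP5G3, a copy of the c subunit that forms the rotating ring, was 3847, 4899 and 5844 against 3919, 4327 and 5049 and rose by 0.18 ± 0.06 (adjusted p = 0.0351, and 0.17 ± 0.08 with adjusted p = 0.175 under the covariate). This call was lost without any of 10 arrays, namely SAL30 replicates 1 and 2, SAL60 replicate 1, SAL180 replicates 1 and 3, MB30 replicate 1, MB60 replicates 2 and 3, and MB180 replicates 2 and 3 (adjusted p from 0.0526 to 0.086). ATP5G1 and ATP5G2, which encode the same mature c subunit, had differences of 0.01 ± 0.06 and 0.06 ± 0.07 (adjusted p = 0.94 and 0.571). The catalytic subunits did not pass, with 0.11 ± 0.08 for ATP5A1 (adjusted p = 0.355) and 0.03 ± 0.07 for ATP5B (adjusted p = 0.77). ATP5I had the lowest mean difference of the 64 genes, -0.55 ± 0.52, with an adjusted p of 0.466.

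Among the factors that are not subunits, the assembly factors went both ways. NDUFAF1 was 101, 132 and 234 with methylene blue and 67.2, 97.8 and 137 with saline, and rose by 0.41 ± 0.12 (adjusted p = 0.017, and 0.506 with the covariate, where the difference was 0.13). NDUFAF3, which acts on the quinone-reducing module, was 201, 278 and 335 against 304, 354 and 502 and fell by 0.41 ± 0.10 (adjusted p = 0.00292, and 0.0183 with the covariate). ATP5S was 163, 225 and 345 against 249, 308 and 626 and fell by 0.43 ± 0.15 (adjusted p = 0.0305, and -0.17 ± 0.15 with adjusted p = 0.526 under the covariate), with SAL180 replicate 3 far above the other saline arrays. Its call was lost without SAL180 replicate 3 (adjusted p = 0.0812) and without SAL30 replicate 2, SAL60 replicate 2, MB30 replicate 2, MB60 replicate 2 or MB180 replicates 2 or 3 (adjusted p from 0.0522 to 0.0709). NDUFAF2 and SDHAF2 had differences of 0.22 ± 0.09 and 0.17 ± 0.08 (adjusted p = 0.0692 and 0.111).

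Complexes II, III and IV showed no call against saline. The 4 subunits of complex II had differences of 0.12 ± 0.06 (SDHA), -0.03 ± 0.07 (SDHB), 0.12 ± 0.09 (SDHC) and 0.00 ± 0.07 (SDHD), with 95% intervals that lay within -0.18 and 0.30. In complex III UQCRB, which binds near the quinone site, had 0.06 ± 0.06 and UQCR10, a small subunit, -0.13 ± 0.10. In complex IV COX7A1 had a lowest, median and highest intensity of 273, 358 and 440 with methylene blue and 249, 459 and 846 with saline, which overlap, and its difference of -0.39 ± 0.16 did not pass (adjusted p = 0.0824). COX6A1 and COX7A2 each had 0.08 ± 0.07 (adjusted p = 0.451 and 0.45), and COX7C had -0.20 ± 0.11 (adjusted p = 0.195).

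**Figure D4:**
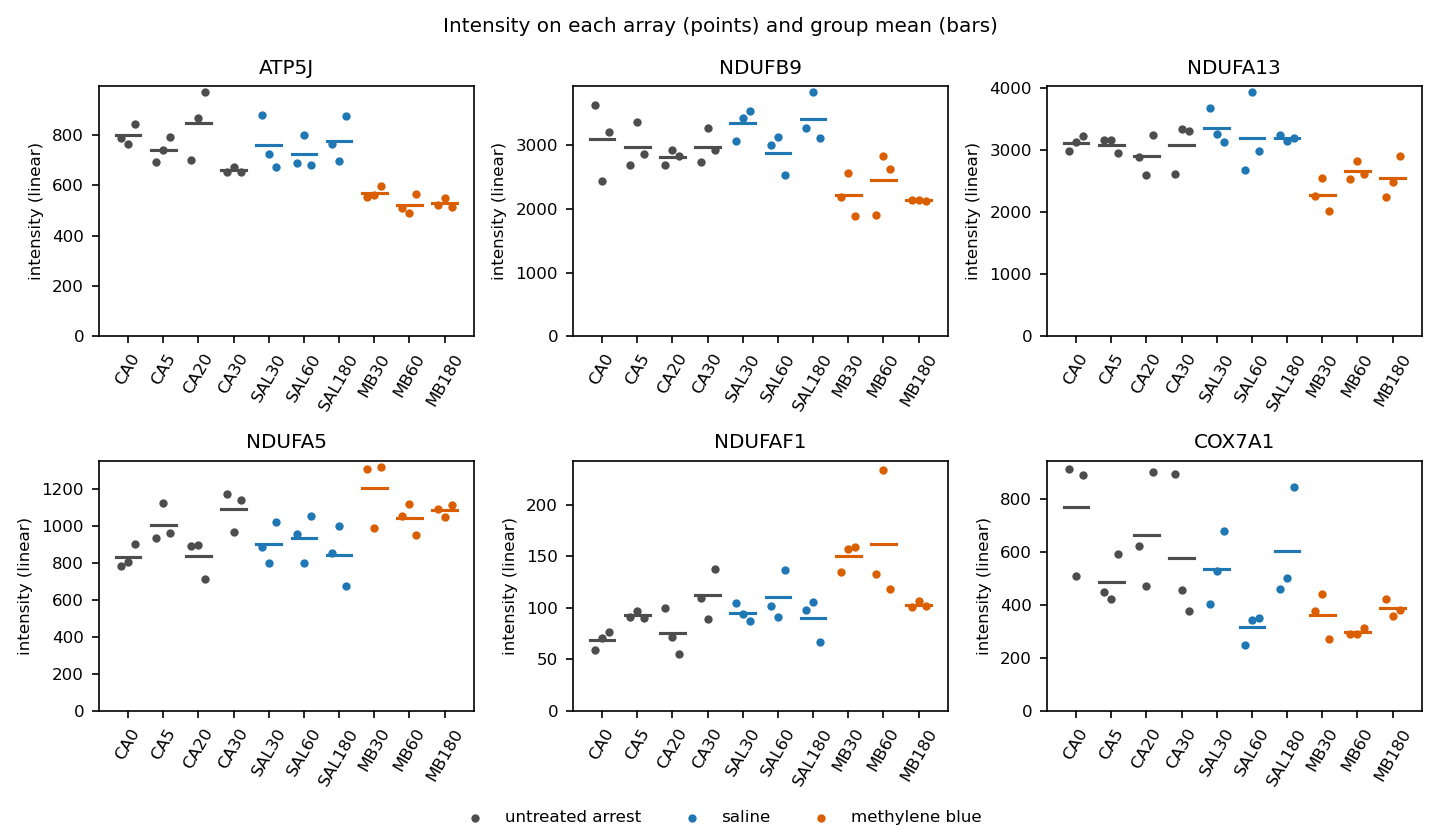
Intensity on a linear scale of 6 genes on each of 30 arrays (points) with the mean of each group (bars), by group. The 9 methylene blue arrays of ATP5J (491 to 598) lie below all other arrays, those of NDUFB9 and NDUFA13 lie mostly below and those of NDUFA5 mostly above the saline arrays, those of NDUFAF1 overlap them from 101 to 137, and COX7A1 is highest on 1 CA0 array (910).

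At single times fewer genes passed. At 30 min NDUFA13 was 2259, 2552 and 2018 in MB30 against 3688, 3262 and 3138 in SAL30, and NDUFB9 was 2189, 2562 and 1878 against 3063, 3420 and 3522, without overlap in either gene. Both fell, by 0.56 ± 0.13 (adjusted p = 0.0155) and 0.60 ± 0.15 (adjusted p = 0.0245), and 2 of 64 genes (3.12%) compare with 4.09% of all probe sets. NDUFA13 lost its call without SAL30 replicate 1 (adjusted p = 0.0776) or MB30 replicate 3 (0.0777), and NDUFB9 without SAL30 replicate 2 (0.0609), MB30 replicate 1 (0.0615) or MB30 replicate 3 (0.106). The count was 4 without SAL30 replicate 3. NDUFAF1 was above SAL30 on all 3 MB30 arrays and did not pass (0.58 ± 0.21, adjusted p = 0.112).

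At 60 min ATP5J alone passed, 1 of 64 genes (1.56%) against 1.52% of all probe sets, with 687, 801 and 680 in SAL60, all above the 491 to 565 of MB60, and a fall of 0.46 ± 0.12 (adjusted p = 0.0489). The call was lost whichever of the 6 arrays was left out (adjusted p from 0.0648 to 0.269). At 180 min ATP5J and NDUFB9 passed, 2 of 64 (3.12%) against 1.90%. ATP5J was 762, 695 and 874 in SAL180, above all MB180 arrays, and fell by 0.54 ± 0.12 (adjusted p = 0.0207), and NDUFB9 was 2142, 2136 and 2124 in MB180 against 3255, 3822 and 3113 in SAL180 and fell by 0.66 ± 0.15 (adjusted p = 0.0224). Without SAL180 replicate 1 or 3 or MB180 replicate 2 or 3 both calls were lost (adjusted p from 0.0584 to 0.153), and without SAL180 replicate 2 that of NDUFB9 (0.0592). With the 3'/5' ratio as a covariate both genes kept their direction at 180 min and no call was made, with adjusted p = 0.233 for ATP5J and 0.167 for NDUFB9.

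Of the 15 genes called in the mean, 14 had the same sign at all 3 times, the exception being NDUFA10 with 0.00 ± 0.13 at 60 min. These genes were chosen by the mean of the same 3 differences, which favours a shared sign, and 98.1% of all probe sets called in the mean shared it too. The interaction test of whether the methylene blue difference varied with time called 0 of 64 genes and 0% of all probe sets (limma F test), with 1 of the 64 and 483 of 16799 at an unadjusted p under 0.05. The 1 was SDHD, with differences of -0.29 ± 0.11 at 30 min, 0.08 ± 0.11 at 60 min and 0.21 ± 0.11 at 180 min (unadjusted p = 0.0126, adjusted p = 1).

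**Figure D5:**
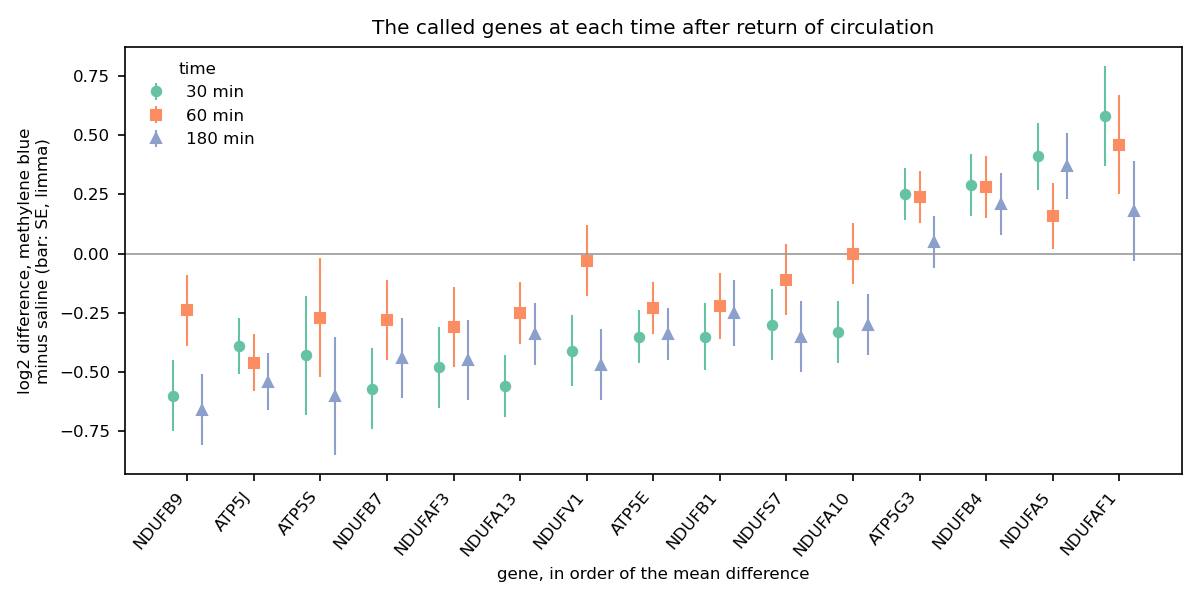
Log2 difference between methylene blue and saline at 30, 60 and 180 min (points, with the standard error from limma as bars) for the 15 genes called in the mean over times, in the order of that mean. ATP5J is below 0 by 0.39 to 0.54 at each time. Several of the genes have their smallest difference at 60 min, and the interaction test with time called none of the 64 genes.

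Methylene blue groups were also set against CA0, which joins the effects of arrest, reperfusion and infusion. These 3 comparisons share the CA0 arrays with each other and with those above, and each is given for itself. At 30 min 12 of 64 genes passed (18.8%, 10 lower and 2 higher) against 12.2% of all probe sets, at 60 min 5 of 64 (7.81%, 4 lower and 1 higher) against 12.5%, and at 180 min 8 of 64 (12.5%, 7 lower and 1 higher) against 9.41%. The medians of the 64 genes were -0.08, -0.06 and -0.07, against 0.04, 0.01 and 0.04 over all probe sets, and -0.04, -0.07 and -0.03 after quantile normalization. Quantile normalization gave 8 lower and 5 higher at 30 min, and median centring 17 lower and 1 higher at 30 min and 14 lower and 0 higher at 180 min, while it moved the medians of the 64 genes to -0.26, -0.19 and -0.24 and those of all probe sets to -0.15, -0.13 and -0.13. With the 3'/5' ratio as a covariate 0, 1 and 2 genes were called. Of the 25 calls, 6 were kept with each array left out: ATP5J at all 3 times, NDUFAF1 at 30 and 60 min, and COX7A1 at 60 min. Without MB30 replicate 3 the count at 30 min was 2, without CA0 replicate 3 the counts at 60 and 180 min were 3 and 1, and without CA0 replicate 1 those at 30 and 180 min were 7 and 3. Leaving out CA0 replicate 2 gave 6 at 30 min and 4 at 180 min, CA0 replicate 3 gave 6 at 30 min, MB30 replicate 1 gave 7 at 30 min, and MB180 replicates 1, 2 and 3 gave 5, 2 and 3 at 180 min.

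ATP5J was 787, 765 and 845 in CA0, above every methylene blue array, and fell by 0.47 ± 0.12 in MB30 (adjusted p = 0.0123), 0.60 ± 0.12 in MB60 (0.00251), and 0.58 ± 0.12 in MB180 (0.00375). NDUFAF1 was 134, 157 and 159 in MB30 and 132, 234 and 119 in MB60, above the 59.5 to 76.8 of CA0, and rose by 0.97 ± 0.21 (adjusted p = 0.00519) and 1.01 ± 0.21 (0.00375). With the covariate these differences were 0.56 and 0.66 (adjusted p = 0.109 and 0.0505). In MB180 it was 101, 107 and 101, also above CA0, and did not pass (0.49 ± 0.21, adjusted p = 0.143).

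COX7A1 had the largest falls against CA0 among the genes called. It was 377, 440 and 273 in MB30, 289, 291 and 311 in MB60 and 422, 358 and 382 in MB180, all below the 510 to 910 of CA0. The differences were -1.03 ± 0.29 (adjusted p = 0.0209), -1.28 ± 0.29 (0.00564) and -0.92 ± 0.29 (0.042), and with the covariate -0.79, -1.07 and -0.73 (adjusted p = 0.187, 0.0614 and 0.175). The call at 30 min was lost without CA0 replicate 1 (0.0877), CA0 replicate 3 (0.0818) or MB30 replicate 3 (0.101), and that at 180 min without CA0 replicate 1 or 3 or any MB180 array (adjusted p from 0.0557 to 0.145). In CA5 COX7A1 was 448, 422 and 592, in CA20 622, 471 and 900, and in CA30 892, 455 and 378. In SAL30 it was 402, 528 and 679, and in SAL180 459, 501 and 846. These groups overlapped CA0 and did not pass against it, but each had arrays below the 510 to 910 of CA0. Markers of smooth muscle and pericytes, of which 6 of 7 were measured, had a summed intensity of 3540 to 5080 in CA0. On the methylene blue arrays it was 3770 to 5910, which overlaps. ACTA2 and TAGLN were called higher in MB30 (33.3% of the 6, against 12.2% of all probe sets). The part of these cells in the COX7A1 values was not tested. ATP5E fell by 0.40 ± 0.11, 0.39 ± 0.11 and 0.45 ± 0.11 at the 3 times (adjusted p = 0.0221, 0.0225 and 0.0116). Its calls were lost without CA0 replicate 2 or 3 at every time (adjusted p from 0.0501 to 0.0821), without MB30 replicates 1 or 3 at 30 min (0.0817 and 0.051) and without MB60 replicates 1 or 2 at 60 min (0.0704 and 0.0776).

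The remaining calls against CA0 each depended on single arrays. At 30 min NDUFA5 was 1306, 987 and 1319, above the 784 to 899 of CA0, and rose by 0.52 ± 0.14 (adjusted p = 0.0214), which was lost without CA0 replicate 1 or 2 or MB30 replicate 1 or 3 (0.0622 to 0.0924). NDUFV1 was 991, 668 and 618 against 1129, 1187 and 1098, without overlap, and fell by 0.60 ± 0.15 (0.0114), lost without MB30 replicate 2 or 3 (0.0562 and 0.074). NDUFB7 fell by 0.61 ± 0.17 (0.0245), lost without CA0 replicate 3 or MB30 replicate 2 or 3 (0.061 to 0.104). NDUFA13 fell by 0.46 ± 0.13 (0.024), lost without CA0 replicate 2 or 3 or MB30 replicate 1 or 3 (0.0553 to 0.113), and NDUFA10 by 0.43 ± 0.13 (0.0309), lost without CA0 replicate 1 or 2 or MB30 replicate 3 (0.0916 to 0.18). MB30 replicate 3, the array with the lowest subunit median of its group, was among the arrays needed for all of these calls. NDUFB1 fell by 0.46 ± 0.14 (0.0307), lost without CA0 replicate 1 or 2 or any MB30 array (0.0522 to 0.123), NDUFS7 by 0.48 ± 0.15 (0.0409), lost without any CA0 array or MB30 replicate 3 (0.0596 to 0.246), and NDUFB9 by 0.47 ± 0.15 (0.0396), lost without CA0 replicate 1 or 3 or MB30 replicate 1 or 3 (0.0802 to 0.187). The arrays of NDUFB9 overlapped those of CA0, where replicate 2 was 2430.

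At 60 min NDUFB1 was the only such gene, with a fall of 0.40 ± 0.14 (adjusted p = 0.0499) that was lost without any CA0 array or MB60 replicate 1 or 2 (0.0584 to 0.204). At 180 min ATP5L, a membrane subunit of ATP synthase, was 1874, 1862 and 1938 against 2571, 2603 and 2563 in CA0, without overlap, and fell by 0.44 ± 0.14 (0.0436), lost whichever of the 6 arrays was left out (0.0783 to 0.118). NDUFB7 fell by 0.57 ± 0.17 (0.0377), also lost without any of the 6 arrays (0.0641 to 0.135). NDUFB9 fell by 0.51 ± 0.15 (0.032), lost without CA0 replicate 1 or 3 or any MB180 array (0.0555 to 0.15), and NDUFV1 by 0.49 ± 0.15 (0.0386), lost without any CA0 array or MB180 replicate 2 or 3 (0.0765 to 0.125). NDUFC1 was 1645, 2234 and 1526 against 1542, 996 and 1370, which overlap, and rose by 0.47 ± 0.15 (0.0474), lost without CA0 replicate 2 or 3 or MB180 replicate 2 (0.0746 to 0.264). For ATP5L the fall is that of 1 probe set only. The other ATP5L probe sets rose with methylene blue against saline in the mean over times, by 0.44 ± 0.11 and 1.22 ± 0.17.

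Over all 10 groups together 7 of 64 genes differed (10.9%, limma F test) against 15.3% of all probe sets. They were ATP5J (adjusted p = 0.000552), NDUFB9 (0.0114), NDUFAF1 (0.0118), COX7A1 (0.0138), ATP5E (0.0239), NDUFA13 (0.0334) and NDUFB1 (0.0472). ATP5J, NDUFB9, NDUFAF1, COX7A1 and ATP5E kept the call with each of the 30 arrays left out. NDUFA13 lost it without SAL180 replicate 1, MB30 replicates 1 or 3 or MB180 replicate 2 (adjusted p from 0.0509 to 0.114), and NDUFB1 lost it without any of 20 arrays (adjusted p from 0.0504 to 0.108), namely all 12 of CA0, CA5, CA20 and CA30, SAL60 replicate 1, the 3 of MB30, MB60 replicates 1 and 2 and MB180 replicates 1 and 3. With the 3'/5' ratio as a covariate ATP5J alone was called (adjusted p = 0.0394).

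Further probe sets of the same genes did not always follow the one described. Of 14 that passed the filter, for 11 genes, 7 had the same sign in the mean over times and 4 were called. The second NDUFAF1 probe set rose by 0.77 ± 0.15 (adjusted p = 0.000636), in the same direction as the first, and 1 for NDUFV2, a subunit of the NADH-oxidising module, rose by 0.56 ± 0.15 (adjusted p = 0.00691). For ATP5L the probe set described had -0.11 ± 0.08, whereas the other 2 rose by 0.44 ± 0.11 (adjusted p = 0.00406) and 1.22 ± 0.17 (adjusted p = 2.7e-05). For ATP5S the other probe set had 0.07 ± 0.11 (adjusted p = 0.668) beside the fall of 0.43. ATP5J, NDUFB9, NDUFA13, NDUFB7 and NDUFAF3 had no second tested probe set to set beside them.

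Genes that surround the chain were counted in the mean over times of methylene blue against saline, from 5 lists, beside the 25.2% of all probe sets. The shares called were 25.9%, 45%, 25%, 33.3% and 38.5%, in the order in which the lists follow. The lists are small, and no difference from 25.2% was tested. The values are without the 3'/5' ratio as a covariate, under which 8.66% of all probe sets were called. Of 27 tested assembly factors and mobile carriers, 5 rose and 2 fell. LYRM7, an assembly factor of complex III, rose by 0.87 ± 0.16 (adjusted p = 0.000459), TMEM70, which acts on ATP synthase, by 0.49 ± 0.09 (0.000424), and GPD2, the mitochondrial glycerol phosphate dehydrogenase, by 0.82 ± 0.25 (0.0202), with smaller rises of COQ6 (0.28 ± 0.08) and HIGD1A (0.23 ± 0.07). ECSIT, which takes part in complex I assembly, fell by 0.33 ± 0.07 (0.00179) and ETFB, an electron carrier of fatty acid oxidation, by 0.28 ± 0.10 (0.0414). Of 20 tested genes of pyruvate dehydrogenase and the citric acid cycle, 6 rose and 3 fell. PDK3, a kinase that inhibits pyruvate dehydrogenase, rose by 0.61 ± 0.12 (0.000722), as did DLAT (0.35 ± 0.09) and PDHB (0.16 ± 0.06) of the dehydrogenase itself, MDH1 (0.36 ± 0.09), SUCLA2 (0.28 ± 0.09) and FH (0.23 ± 0.08), whereas PC (-0.35 ± 0.10), CS (-0.22 ± 0.08) and SUCLG1 (-0.21 ± 0.07) fell.

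Of 20 tested mitochondrial carriers and channels, 2 rose, the carnitine carrier SLC25A20 (0.37 ± 0.10) and SLC25A14 (0.35 ± 0.12), and 3 fell, the citrate carrier SLC25A1 (-0.44 ± 0.12), the ADP/ATP carrier SLC25A6 (-0.41 ± 0.08) and the outer membrane channel VDAC3 (-0.19 ± 0.06). Of 9 tested regulators of mitochondrial biogenesis, PRKAA1, a catalytic subunit of AMP-activated kinase, rose by 0.48 ± 0.15 (0.0185), and YY1 (-0.27 ± 0.07) and TFAM (-0.22 ± 0.07), a transcription factor of the mitochondrial genome, fell. Of 13 tested genes of hypoxic remodelling, ADM (0.51 ± 0.16), LDHA (0.48 ± 0.15), EPAS1 (0.39 ± 0.13) and HIGD1A rose and the protease LONP1 (-0.20 ± 0.07) fell. In this last list the glucose transporter SLC2A3 rose against CA0 in all saline groups, by 0.93 ± 0.15 in SAL30 (adjusted p = 0.000902), 1.08 ± 0.15 in SAL60 (0.000134) and 1.01 ± 0.15 in SAL180 (0.000225), and ADM in SAL180 by 1.20 ± 0.27 (0.0225). No other gene of the 5 lists passed in untreated arrest or under saline. The median differences of the lists with methylene blue were 0.09, 0.04, -0.04, 0.07 and 0.20, in the order given.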

How the data were processed

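The deposited table holds intensity values on a linear scale for 24123 probe sets on 30 arrays, which the authors made with GCOS, per the submitters' processing notes; its version and signal algorithm are not given in the labels or notes. After 124 control probe sets were left out, values were analysed as log2(intensity + 16), so that folds of low genes are understated. Probe sets below the 30th percentile of mean log2 value (an intensity of 29.5) were not tested, which left 16799. All 10 group means were fitted together (20 residual degrees of freedom) in limma 3.58.1 under R 4.3.3, with empirical Bayes moderation along the intensity trend. Tests were two-sided, with Benjamini-Hochberg adjustment over all probe sets within each of 13 contrasts and the F tests, at 0.05. Errors of log2 differences are standard errors. Gene symbols came from the platform's probe-gene table, where 10069 probe sets had 1 symbol, 198 several and 13732 none; all 64 genes matched a reference table by gene ID, with 0 under another symbol. A probe set listed under more than 1 gene ID of ATP5SL was left out.

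The genes and lists were chosen with earlier results of these data known. Named are genes called in any test, the 3 of each complex with the smallest F-test p, the largest non-overlapping rise and fall in each contrast, and a fixed set of well-known subunits. Other gene lists are described by counts, their called members and medians. Alternatives were other pseudocounts, filters, scalings, weights, adjustments, probe sets and fits, the 3'/5' ratio as a covariate, the replicate number as a block, and each array left out; a fit without 5 arrays that stood apart was chosen after seeing the data. The pipeline was tested on simulated data. No scan or extraction batch was given in the labels used here.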

Additional observations from a re-analysis of the deposited data

How the results depend on the processing

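Counts out of 64 genes are given here where they moved by more than 1.5 times. The 3'/5' ratio as a covariate gave 0 calls at 60 min and 0 at 180 min against saline, 5 in the mean over times (15 as reported), 0, 1 and 2 against CA0 at 30, 60 and 180 min, and 1 over the 10 groups. Median centring gave 6, 0 and 5 calls at 30, 60 and 180 min against saline, 10 and 14 at 60 and 180 min against CA0, and 14 over the 10 groups. Fitting only the compared groups gave 0, 0 and 0 against saline and 5, 3 and 3 against CA0. Array weights gave 1 call in SAL60 against CA0 (COX7A1), 4 and 5 at 30 and 180 min against saline, and 11 over the 10 groups. Without the 5 arrays that stood apart there was 1 call in SAL60 against CA0, 1, 0 and 0 against saline and 9 in the mean. Adjustment over all contrasts gave 1 in SAL60 against CA0 and 2 in MB180 against CA0. Without the intensity trend there were 0 at 60 min against saline and 4 over the 10 groups, and without the filter or with quantile normalization 0 at 60 min. With all probe sets of each gene there were 4 and 2 calls at 30 and 60 min against saline.

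With 1 array left out, the counts ran from 0 to 4 at 30 min, 0 to 0 at 60 min and 0 to 2 at 180 min against saline, from 11 to 20 in the mean over times, from 2 to 9, 3 to 6 and 1 to 5 against CA0, from 0 to 1 in SAL60 against CA0, and from 5 to 8 over the 10 groups. The replicate numbers did not pair the arrays: the correlation of deviations between arrays of the same number was -0.38 to 0.37 (median -0.003), and 8 of 30 arrays correlated best with one of their own number. With the replicate block 15 genes were called in the mean over times and 0 at 60 min against saline. Of 662 repeats of single calls under the settings other than leaving out 1 array, 539 passed and 0 reversed. Of 1360 medians by complex, 1322 moved by less than 1 standard deviation between arrays; 28 of the other 38 did so under median centring (values from -0.29 to -0.02), 3 with the covariate (-0.03 each) and 7 with 1 array left out (from -0.20 to 0.10).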
